A study of Mus musculus with 6 samples.

Results

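The genes of DNA replication followed here are 44 genes chosen by name, with earlier results of these data known. They act in S phase, the part of the cell cycle in which chromosomes are copied. They fall into 4 roles: 12 genes of origin licensing, 22 of the replication fork, 4 of nucleotide supply and 6 of E2F or cyclin control. RNA came from the trunk of mouse embryos at embryonic day 9.5, cut from the level of the otic vesicle back to somite 15 with the forelimb buds attached. Wild-type embryos were compared with Arid3b-null embryos, which lack the transcription factor Arid3b; the allele is not stated in the sources used here. Each group had 3 Agilent one-colour arrays, and each array held RNA of 4 pooled embryos, so that the spread within a group is that between pools and not between embryos. Array probes were assigned to the 44 genes through RefSeq accessions. Of these genes 43 could be tested, among 19795 genes in all, of which 14211 have a gene symbol and the rest only the array's own name. Ccne2, which encodes cyclin E2, has a single probe that was not well above background on any of the 6 arrays, so it was not tested and only a bound exists for it.

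Before S phase, the origin recognition complex, Cdc6 and Cdt1 load the ring of Mcm2 to Mcm7 onto DNA, and geminin, the product of Gmnn, blocks Cdt1 from loading it again. In S phase the ring is joined by Cdc45 and the GINS complex to form the helicase, primase and the polymerases copy the strands, and replication factor C places the sliding clamp Pcna. Most of these genes, and the enzymes that make deoxynucleotides, are switched on late in G1 by E2F factors once cyclin-dependent kinases, among them those bound to cyclin E, have inactivated the retinoblastoma proteins. In the embryonic trunk, progenitors of the neural tube, somites and limb buds cycle rapidly, while newly formed neurons have left the cycle.

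Values are log2 signals relative to the 75th percentile of each array, listed for replicates 1, 2 and 3, and a change is Arid3b-null minus wild type. Each of the 3 slides carried 1 wild-type and 1 Arid3b-null array with the same replicate number, so a within-slide change is the difference of that pair. Arid3b itself, read by its brightest probe, stood at 2.18, 2.57 and 1.97 in wild type and at 0.54, 0.65 and 0.46 in Arid3b-null, 3.22-fold lower. Its other 2 probes were 3.72-fold and 9.41-fold lower, and in Arid3b-null only 2 arrays read them well above background. The position of that probe with respect to the deletion is not stated in the sources used here. The trunk markers Hoxa4, Hoxa5 and the other 7 Hox genes checked for this axial level were all measurable, with Hoxa4 and Hoxa5 called lower and a median change of -0.24 over the 9, while the forebrain genes Six3 and Rax and the hindlimb gene Tbx4 were not well above background on all 3 arrays of either group. Emx2, Lhx2 and Pitx1, also listed for the forebrain or hindlimb, were measurable. Replicate 1 of Arid3b-null stood apart in heart muscle genes: their mean log2 signal was -1.22 there and between -0.29 and 0.72 on the other 5 arrays. Some other lists moved with genotype, read against 12.9% of all tested genes called lower and 13.6% called higher. Of 15 early neuron genes 12 were called lower (list mean 0.16 to 0.45 in wild type, -1.68 to -1.41 in Arid3b-null), and of 10 neural progenitor genes 6 (0.64 to 0.74 against -0.29 to -0.17). Of 10 primitive erythroid genes 3 were called lower (2.90 to 3.18 against 2.39 to 2.61). Of 8 surface epithelium genes 5 were called higher (-0.05 to 0.34 against 0.96 to 1.16), and so were all 12 hypoxia response genes (0.55 to 0.89 against 2.92 to 3.23). Of 8 endothelial genes 0 were called lower and 1 higher, and of 12 genes of paraxial mesoderm and limb bud 2 and 1, counts near the shares of all genes. The part of these shifts in the changes of the replication genes was not tested. In pooled tissue, fewer cells with a transcript and less of it per cell cannot be told apart.

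The replication genes leaned lower in the Arid3b-null trunk, and 6 of them were called lower in all 14 alternative analyses: Tyms, Rrm2 and Tk1 of deoxynucleotide supply, E2f2 and Ccne1 among the control genes, and Fen1 at the fork. The share of all genes called lower in all 14 was not computed, so this count has no background beside it. Of the 43 tested genes 10 fell and 1, Cdt1, rose at an adjusted p under 0.05 (limma, Benjamini-Hochberg over all 19795 genes), and 32 did not pass. Over all tested genes 12.9% were called lower and 13.6% higher, so the 23.3% of replication genes called lower stood above the background share, and 1 call upward stood below it. These genes were chosen with earlier results of these data known, so the comparison describes the list and is no test of it. Without wild-type replicate 1, or with no filter on dim probes, 6 of the replication genes were called lower and 0 higher. Over all genes 1202 of 19795 were called lower and 1661 higher without that array. With no filter 998 of 32530 were called lower and 1288 higher. Every Arid3b-null array lay below every wild-type array for 20 of the 43 genes, where 23.1% of all genes did so, and above for 2, where 23.0% did so. The median change was -0.24 against -0.04 over all genes, with a range from -1.11 to 0.51. Within slides the median change was -0.23, -0.36 and -0.14, and 34, 39 and 29 of the 43 changes were negative. Over all 19795 genes the within-slide medians were 0.03, -0.03 and -0.10, and 9409, 10345 and 11237 changes were negative. The replication and all-gene medians lay closest on slide 3. The changes were not uniform: 18 genes that did not pass had a change smaller than 0.2 in either direction.

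**Figure D1:**
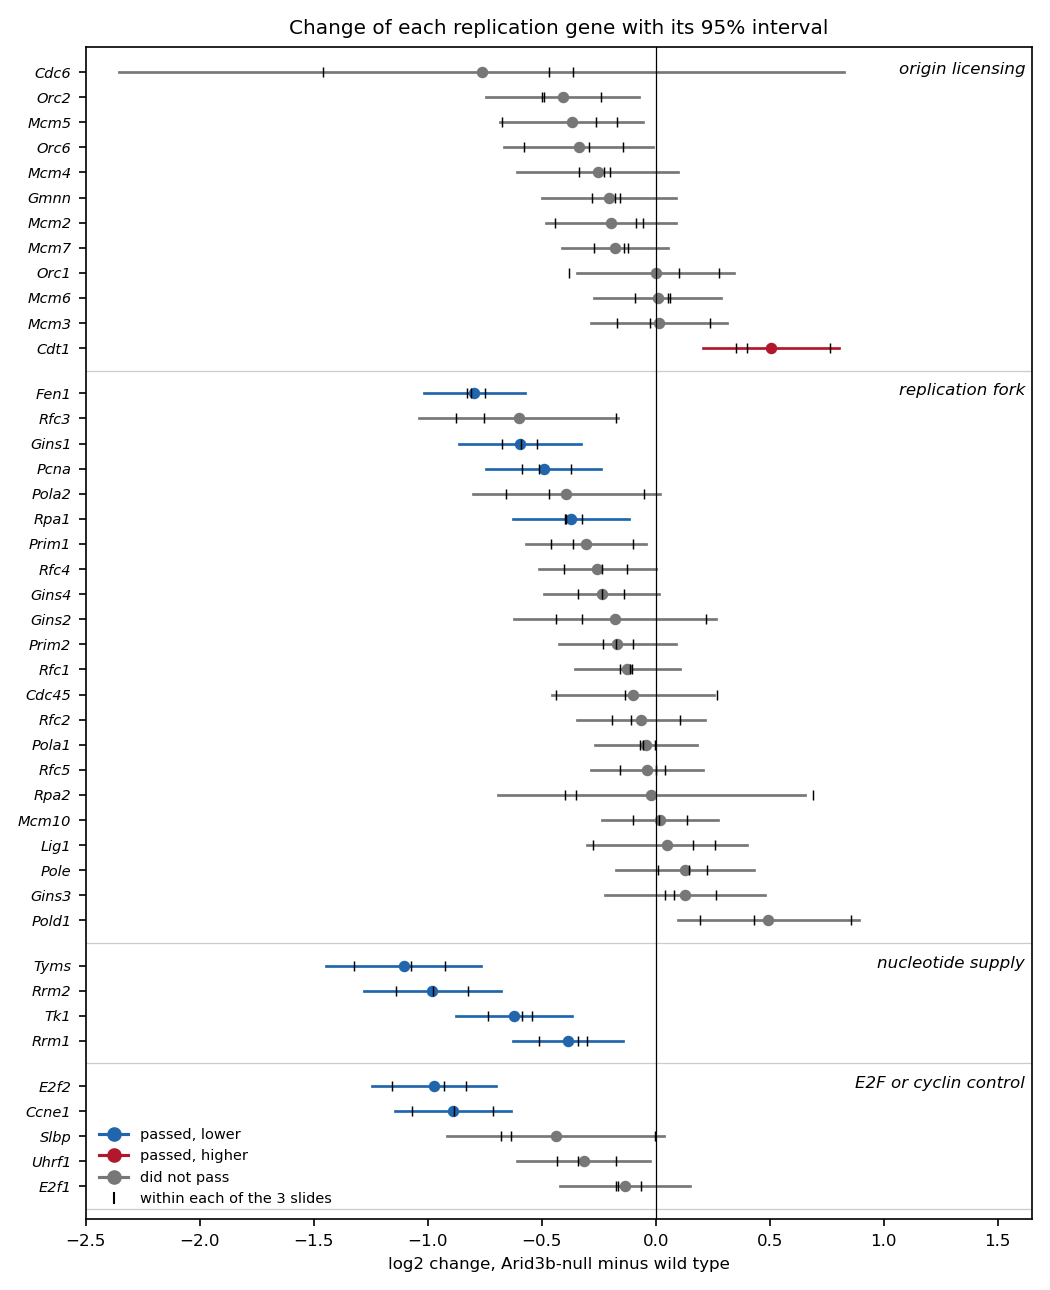
Log2 change of each of the 43 tested replication genes, Arid3b-null minus wild type, grouped by role. Points are limma estimates from 3 arrays per group, lines are 95% intervals and black ticks are the changes within each of the 3 slides. All 4 genes of nucleotide supply lie left of 0 on every slide, while Mcm3, Mcm6 and Orc1 lie at 0.

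The start regions of these genes were read for E2F letters, since E2F factors drive many of them. RefSeq start windows of 300 bases (250 before and 50 after a gene's start, build GRCm38.p6) matched 35 of the 44 genes. The E2F consensus was searched in its 4 spellings, TTTCCCGC, TTTCGCGC, TTTGCCGC and TTTGGCGC, on both strands. It was found in 14 of the 35 replication genes (40.0%), against 2.60% of all genes with a window and 4.37% of tested genes. Licensing genes held it in 7 of 10, fork genes in 5 of 16, control genes in 2 of 5 and nucleotide supply genes in 0 of 4. By outcome it was present in 1 of 9 genes called lower, E2f2, in Cdt1, and in 12 of 25 genes that did not pass. The letters of the cell cycle homology region, TTTGAA on either strand, were found in 5 of the 35 genes (14.3%) and in 19 of 26 genes of G2 and M phase. They were found in 20.2% of all genes and 14.4% of tested genes. These matches are letters in a window and not binding sites. The next 2 stretches, both upstream of starts of ring subunits that did not pass the test, show dense E2F matches in capitals. In each, TTTGGCGC or TTTCGCGC runs into a second match on the other strand, and Mcm6 has another match closer to its start.
Mcm6, chr1:128359715-128359845 (minus strand): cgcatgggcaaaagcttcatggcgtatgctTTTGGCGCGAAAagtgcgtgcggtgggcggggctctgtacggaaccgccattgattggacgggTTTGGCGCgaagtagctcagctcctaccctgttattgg
Mcm5, chr8:75109326-75109397 (plus strand): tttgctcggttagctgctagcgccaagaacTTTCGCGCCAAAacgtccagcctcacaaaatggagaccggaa

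Around the genes that fell, shorter letters were searched after the first matches had been seen. The E2F core, which is the same 4 spellings without their first T and so lies within every full match, occurred in 4 of the 9 genes called lower and 21 of all 35, against 10.9% of all genes and 18.3% of tested genes. The CCAAT box, CCAAT or ATTGG, occurred in 5 of the 9 and 23 of 35, against 41.1% of all genes and 42.8% of tested genes. The 120 bases before the start of 4 genes that fell, picked because they hold such letters, are printed with E2F core and CCAAT letters in capitals. In these stretches Rrm1 has 1 core match between 2 CCAAT boxes, Rrm2 and Pcna have a CCAAT box alone, and Fen1 has a core match alone. The same 120 bases of Rpa1 and of each start of E2f2, not printed, hold a CCAAT box alone. Those of Ccne1, Tk1, Tyms and a further start of Fen1 hold neither.
Rrm1, chr7:102441575-102441694 (plus strand): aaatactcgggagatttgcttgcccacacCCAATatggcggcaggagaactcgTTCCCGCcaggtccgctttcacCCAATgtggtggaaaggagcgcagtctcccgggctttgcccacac
Rrm2, chr12:24708134-24708253 (plus strand): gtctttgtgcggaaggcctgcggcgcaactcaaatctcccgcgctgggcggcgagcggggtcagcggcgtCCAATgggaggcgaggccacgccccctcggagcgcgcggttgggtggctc
Pcna, chr2:132253181-132253300 (minus strand): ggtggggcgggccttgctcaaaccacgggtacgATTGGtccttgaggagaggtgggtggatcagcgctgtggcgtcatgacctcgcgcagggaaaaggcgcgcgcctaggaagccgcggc
Fen1, chr19:10203922-10204041 (minus strand): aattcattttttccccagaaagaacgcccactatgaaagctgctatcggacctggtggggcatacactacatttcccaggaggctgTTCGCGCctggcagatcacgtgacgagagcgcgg

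Origin licensing genes gave the fewest calls. Of 12 genes 0 fell and 1 rose at an adjusted p under 0.05 by limma, and 7 had overlapping groups. Over all tested genes 12.9% fell, 13.6% rose and 10658 of 19795 had overlapping groups. The 1 rise and 7 overlaps among 12 genes lie near these shares. Cdt1, the loader that brings the Mcm ring to origins, read 3.83, 3.84 and 3.51 in wild type and 4.19, 4.24 and 4.28 in Arid3b-null. The groups did not overlap, and wild-type replicate 3 was the lowest. Cdt1 rose by 0.51 ± 0.13 (SE), or 1.42-fold (limma adjusted p = 0.0275), with within-slide changes of 0.35, 0.40 and 0.77. The call was lost with the replicate number as a block (adjusted p = 0.0522) and without any 1 array other than wild-type replicate 2 (adjusted p 0.0548 to 0.0758). Its inhibitor Gmnn changed by -0.21, with overlapping groups (adjusted p = 0.261).

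The 6 subunits of the Mcm ring changed between -0.37 and 0.01, with a median of -0.19, and none was called. Mcm5 read 4.74, 4.81 and 4.64 in wild type and 4.48, 4.14 and 4.47 in Arid3b-null, a change of -0.37 ± 0.13 (SE) without overlap that did not pass (adjusted p = 0.0826). Mcm7 also had separate groups, at -0.18 (adjusted p = 0.224). Mcm4 changed by -0.26 and Mcm2 by -0.20, with overlap. Mcm3 and Mcm6, at 0.01 each, had 95% intervals of -0.29 to 0.31 and -0.27 to 0.29, so a change within these bounds could not be told from 0.

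Among the subunits of the origin recognition complex, Orc2 read -0.66, -0.60 and -1.02 in wild type and -1.15, -1.10 and -1.26 in Arid3b-null. That is a change of -0.41 ± 0.14 (SE), with separate groups, that did not pass (adjusted p = 0.0757) but did without wild-type replicate 3 (adjusted p = 0.0305). Orc6 changed by -0.34 (adjusted p = 0.116) and Orc1 by 0.00, with a 95% interval of -0.34 to 0.34. Cdc6, which helps load the ring, is described below with its 2 probes.

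At the replication fork 4 of 22 genes fell, 0 rose and 18 did not pass; the 18.2% called lower lies near the 12.9% of all genes. The median change was -0.15 (-0.18, -0.31 and -0.06 on the 3 slides, against 0.03, -0.03 and -0.10 over all genes). Arid3b-null lay wholly below wild type for 9 genes, wholly above for 1 and overlapped for 12. Of all 19795 tested genes 23.1% lay wholly below, 23.0% wholly above and 10658 overlapped, so the overlap at the fork is near that of all genes. The genes that fell act on the clamp, the helicase, single-stranded DNA and the processing of Okazaki fragments. Fen1, the flap endonuclease that trims Okazaki fragments, read 3.68, 3.74 and 3.73 in wild type and 2.93, 2.93 and 2.90 in Arid3b-null. It was 1.74-fold lower, at -0.80 ± 0.09 (SE, limma adjusted p = 0.00238), and both groups spanned under 0.1. Lig1, the ligase that seals the same fragments, changed by 0.05 with overlapping groups. Whether the changes of Fen1 and Lig1 differ was not tested.

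Gins1, a subunit of the GINS complex of the helicase, read 2.17, 2.02 and 2.02 in wild type and 1.57, 1.50 and 1.34 in Arid3b-null, a fall of 0.60 on the log2 scale (SE 0.11, limma adjusted p = 0.0112). It was not called without wild-type replicate 1 (adjusted p = 0.0508). The other GINS subunits did not pass: Gins4 changed by -0.24 without overlap, Gins2 by -0.18 and Gins3 by 0.13. Cdc45, which completes the helicase, changed by -0.10 and Mcm10, which activates it, by 0.02.

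Pcna, the sliding clamp, read 4.89, 4.88 and 4.87 in wild type and 4.52, 4.29 and 4.36 in Arid3b-null. The wild-type arrays lay within 0.02 of each other and all Arid3b-null arrays below them, a fall of 0.49 on the log2 scale, or 1.41-fold (limma adjusted p = 0.0173). Pcna no longer passed when wild-type replicate 1 (adjusted p = 0.0675), wild-type replicate 2 (0.0508) or Arid3b-null replicate 2 (0.0522) was left out. Of the 5 subunits of the clamp loader, replication factor C, none was called. Rfc3 came nearest: it read 0.32, -0.07 and -0.21 in wild type and -0.55, -0.82 and -0.39 in Arid3b-null, a change of -0.60 ± 0.18 (SE) with separate groups (adjusted p = 0.0525). Rfc4 changed by -0.26 and Rfc1 by -0.12, both without overlap, and Rfc2 by -0.07 and Rfc5 by -0.04.

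Rpa1, the large subunit of the protein that coats single-stranded DNA, read 4.51, 4.68 and 4.52 in wild type and 4.19, 4.28 and 4.12 in Arid3b-null. It was 1.29-fold lower (limma adjusted p = 0.0437), but not called whichever array was left out (adjusted p 0.066 to 0.122) or with the replicate block (0.0617). Rpa2, the middle subunit, changed by -0.02, and its wild-type replicate 3 read 0.30 against 1.41 and 1.21 in the other two.

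Of the polymerases, Pold1, the catalytic subunit of polymerase delta, read 4.14, 4.41 and 3.79 in wild type and 4.56, 4.61 and 4.65 in Arid3b-null. The groups were separate and the change was 0.49 ± 0.17 (SE), which did not pass (adjusted p = 0.0715) but did without wild-type replicate 2 (0.0362). Pole, the catalytic subunit of polymerase epsilon, changed by 0.13 with overlap. In polymerase alpha and its primase, which start each strand, Pola2 changed by -0.39 (adjusted p = 0.139), Prim1 by -0.31 without overlap (adjusted p = 0.0845), Prim2 by -0.17 and Pola1 by -0.04.

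Nucleotide supply was the role in which all 4 genes fell. Their median change was -0.80, and on the 3 slides taken singly it was -0.68, -0.86 and -0.76. None of the 4 had overlapping groups. Over all tested genes 12.9% were called lower, and for 23.1% every Arid3b-null array lay below every wild-type array. Tyms, thymidylate synthase, which makes thymidylate from deoxyuridylate, read -1.37, -1.43 and -1.72 in wild type and -2.44, -2.75 and -2.64 in Arid3b-null. It fell 2.15-fold (-1.11 ± 0.14 on the log2 scale, SE, limma adjusted p = 0.00329). Every Arid3b-null array lay at least 0.7 below the lowest wild-type array. Tk1, thymidine kinase, which salvages thymidine, read 3.12, 3.09 and 3.14 in wild type and 2.58, 2.36 and 2.55 in Arid3b-null, 1.54-fold lower (adjusted p = 0.00818).

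Ribonucleotide reductase turns ribonucleotides into deoxyribonucleotides and has a large subunit, Rrm1, and a small one, Rrm2. Rrm2 read 5.26, 5.43 and 5.28 in wild type and 4.43, 4.45 and 4.14 in Arid3b-null, a change of -0.98 ± 0.13 (SE, limma adjusted p = 0.00322), or 1.97-fold. The within-slide changes were -0.82, -0.98 and -1.14. Rrm1 read 3.86, 3.99 and 3.82 in wild type and 3.52, 3.48 and 3.52 in Arid3b-null, 1.31-fold lower (adjusted p = 0.0326). The call of Rrm1 was lost whichever array was left out (adjusted p 0.0518 to 0.0967) and with the replicate block (0.0656). The 2 subunits thus had the same direction and estimates that differed in size, a difference that was not tested.

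**Figure D2:**
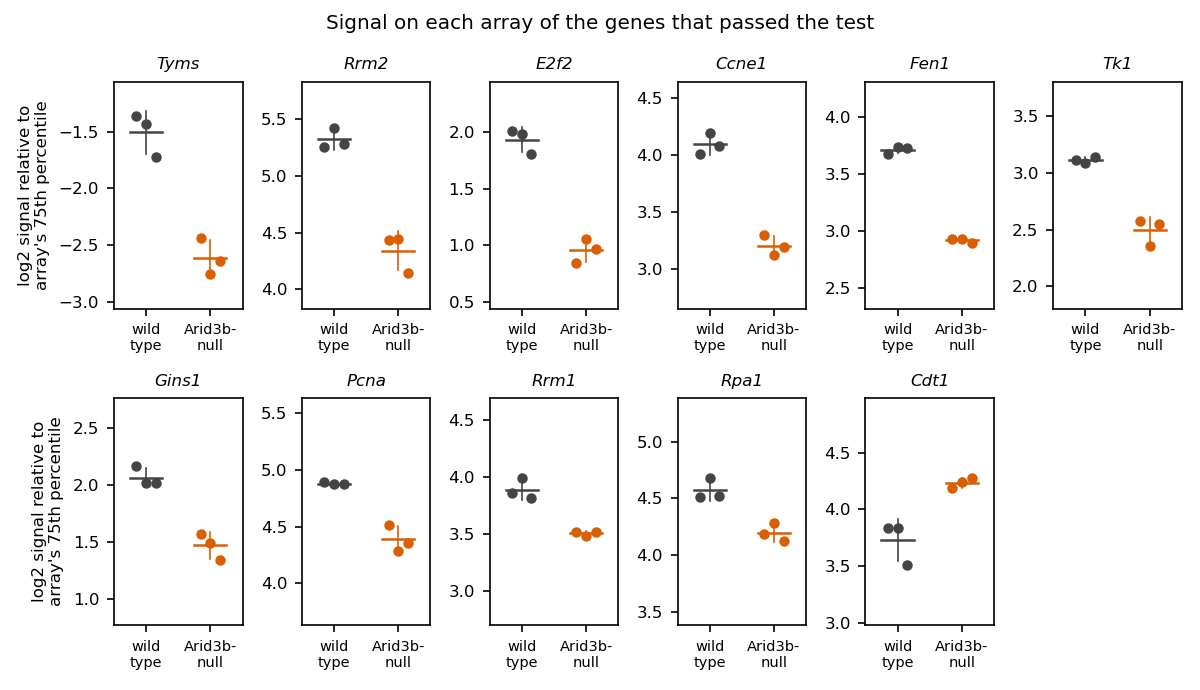
Log2 signal on each of the 6 arrays, relative to that array's 75th percentile, for the 11 replication genes that passed the test. Points are arrays in replicate order, horizontal bars the mean and vertical bars the SD (n = 3), and every panel spans the same log2 range; in no gene do the groups overlap, and only Cdt1 is higher in Arid3b-null.

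Of the 5 tested genes of E2F or cyclin control 2 fell, where 12.9% of all genes did so, and 3 did not pass, with a median change of -0.44. E2f2, an activator of the E2F family, read 2.0, 1.98 and 1.80 in wild type and 0.85, 1.05 and 0.97 in Arid3b-null. It fell 1.96-fold (-0.97 ± 0.11 on the log2 scale, SE, limma adjusted p = 0.00241), and the groups were separated by over 0.7. E2f1, another activator, read 1.91, 2.03 and 1.74 in wild type and 1.74, 1.86 and 1.67 in Arid3b-null. Its groups overlapped, and the change of -0.13 had a 95% interval of -0.42 to 0.15. That of E2f2 was -1.24 to -0.70, and the difference between the 2 genes was not tested.

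Ccne1, cyclin E1, which with Cdk2 starts S phase, read 4.01, 4.19 and 4.08 in wild type and 3.29, 3.12 and 3.19 in Arid3b-null, 1.85-fold lower (limma adjusted p = 0.00265). Uhrf1, which recruits the maintenance DNA methyltransferase to newly copied DNA, changed by -0.32 with separate groups (adjusted p = 0.102). Slbp, which binds the stem-loop of histone messenger RNAs made in S phase, changed by -0.44 with overlap (adjusted p = 0.151).

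For 5 genes a second probe was bright enough to test, so that the same gene was read by a pair of probes. Values of the dimmer probes come from a fit over 24399 probes, in which 12.8% of probes were called lower, chosen after the data had been seen. The 2 probes of Cdc6 differed most in spread. Its brighter probe read -0.49, -1.48 and -0.10 in wild type and -0.85, -2.94 and -0.56 in Arid3b-null, low on slide 2 in both groups, and the change of -0.76 ± 0.67 (SE) did not pass (adjusted p = 0.436). Its dimmer probe read -0.63, -0.62 and -1.24 in wild type and -1.55, -1.59 and -1.70 in Arid3b-null, without overlap, a change of -0.78 ± 0.19 (SE, limma adjusted p = 0.0244), or 1.72-fold lower. Without wild-type replicate 3 this probe had the higher mean and stood for the gene (adjusted p = 0.0073). The 2 probes of Cdc6 thus gave nearly the same mean change over all 6 arrays, with unequal spread. That of the brighter probe depended on slide 2, with within-slide changes of -0.36, -1.46 and -0.47. Without Arid3b-null replicate 2 the brighter probe changed by -0.02 (limma adjusted p = 0.978).

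The dimmer probe of Slbp read -0.54, -0.58 and -0.87 in wild type and -1.08, -1.33 and -1.13 in Arid3b-null, a change of -0.52 ± 0.14 (SE, limma adjusted p = 0.0333), while the brighter one did not pass until wild-type replicate 3 was left out (adjusted p = 0.0347). The dimmer probe of Ccne1 changed by -0.68 ± 0.25 (SE) and did not pass (limma adjusted p = 0.0912). That of Uhrf1 changed by -0.23 and that of Rfc4 by -0.10. All 10 readings of the 5 genes had a negative change.

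**Figure D3:**
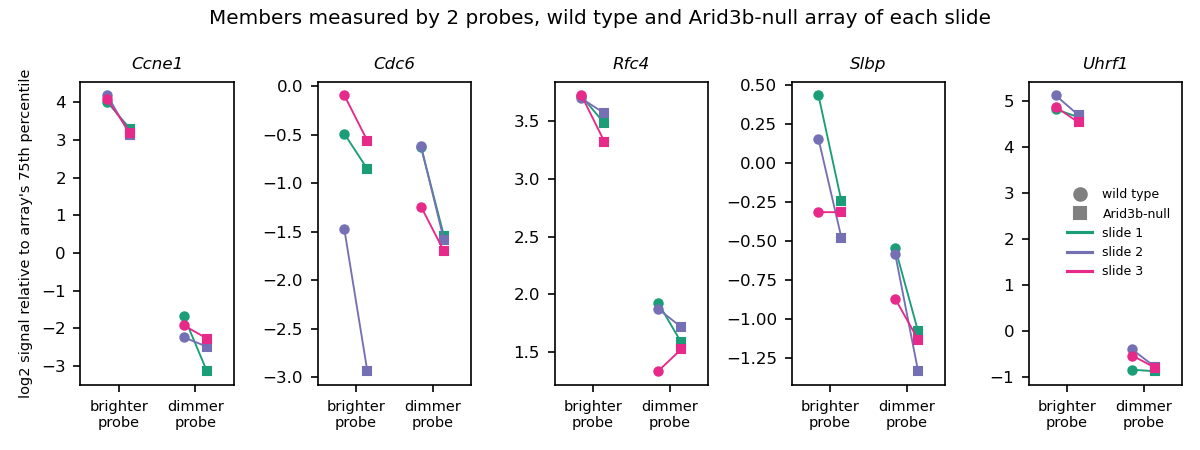
Log2 signal relative to the array's 75th percentile for the brighter and dimmer probe of the 5 genes with 2 tested probes. Circles are wild-type and squares Arid3b-null arrays, and lines join the pair of each slide; on slide 2 the brighter probe of Cdc6 is low in both groups, at -1.48 and -2.94.

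Genes outside the 44 that work beside them were taken from 6 lists of related function. Among 29 other replication factors 5 fell, or 17.2%, and 2 rose (median change -0.18). The shares called lower in this and the next lists are read against 12.9% of all genes. Pold4, the smallest subunit of polymerase delta, rose 2.22-fold (limma adjusted p = 0.00115) and Donson, which helps assemble the helicase, fell 1.56-fold (adjusted p = 0.00617), while the calls of Orc3 (0.46) and Orc4 (-0.64) depended on the setting. Orc3 was at 0.27 with the mean of its probes (adjusted p = 0.0791) and at 0.13 in the authors' deposited table (0.543). Orc4 was at -0.35 with normexp (0.0736) and at -0.45 with the mean of its probes (0.187), and was not called with the replicate block (0.0716). Among 30 tested genes of other nucleotide synthesis 3 fell, or 10%, and 2 rose (median -0.14). Both that rose, Shmt2 (1.92-fold, limma adjusted p = 0.0027) and Mthfd2 (1.53-fold), are mitochondrial enzymes of folate metabolism, and Nme1, a nucleoside diphosphate kinase, fell 1.69-fold, with Umps of pyrimidine synthesis at -0.45, which was not called in 4 of the alternatives that keep all arrays (adjusted p up to 0.106).

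Of 27 tested genes of other G1 to S control 7 fell, or 25.9%, and 2 rose (median -0.20). Ccnd1, cyclin D1, fell 1.57-fold (limma adjusted p = 0.00528), E2f8, a repressor of the E2F family, 1.51-fold and the inhibitor gene Cdkn1c 1.45-fold, while Mycn rose 1.81-fold (adjusted p = 0.00438). Of 11 tested genes that rebuild chromatin behind the fork 4 fell and 0 rose, with a median of -0.33. They were the histone chaperones Asf1b (1.89-fold, limma adjusted p = 0.00631), Asf1a (1.57-fold, at -0.65, or -0.37 with normexp) and Chaf1b (1.43-fold) and the histone variant gene H2az1 (1.47-fold). The share called lower, 36.4%, compares with 12.9% of all genes.

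S phase checkpoint and repair genes were balanced: of 18, 2 fell (Fanca 1.57-fold and Rad54l 1.32-fold lower) and 2 rose (Fancd2 1.64-fold and Atr 1.54-fold higher), with a median change of 0.00 and 11.1% called lower. Rad54l was not called with the replicate block (limma adjusted p = 0.0581). Of 29 tested genes of G2 and M phase, 2 fell (Birc5 at -0.46 and Kif23 at -0.37) and 1 rose (Ttk at 0.75, or 0.48 with normexp), and 26 did not pass, with a median change of -0.12. With the replicate block Kif23 (adjusted p = 0.0691) and Ttk (0.0662) were not called, nor was Birc5 in the authors' deposited table (-0.88, adjusted p = 0.165). The share called lower was 6.90%, against 12.9% of all genes.

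**Figure D4:**
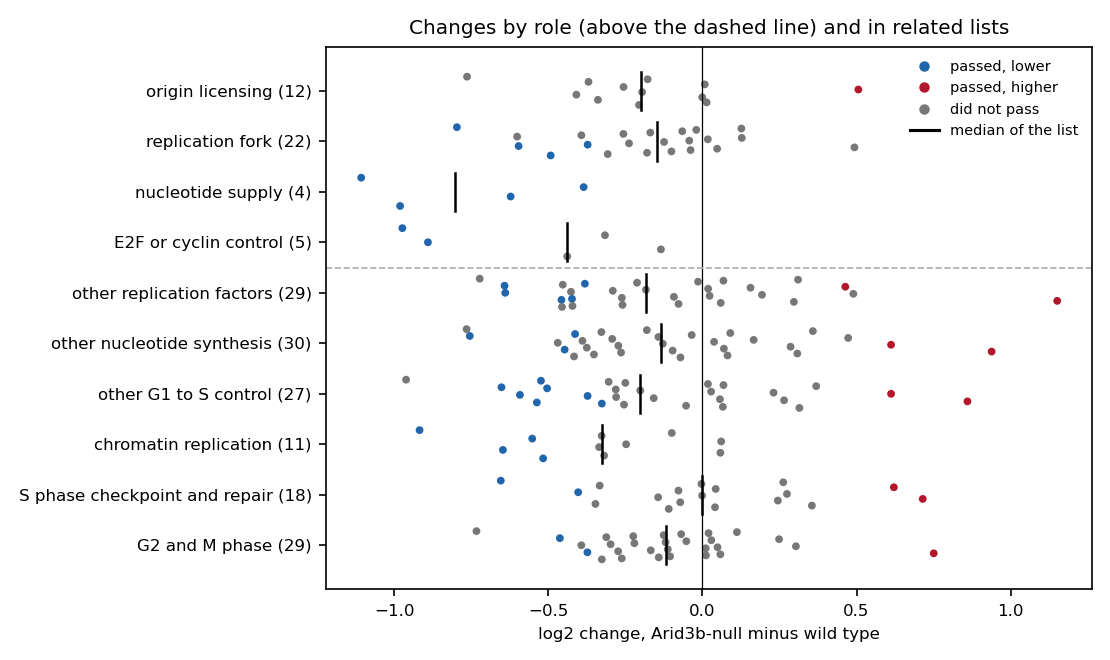
Log2 change of each tested gene, Arid3b-null minus wild type, for the 4 roles (above the dashed line) and 6 lists of related function, with the number of tested genes in brackets. Points are limma estimates from 3 arrays per group, coloured by call, and black bars mark each list's median, from -0.80 in nucleotide supply to 0.00 in S phase checkpoint and repair.

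Of the 23 genes named from these 6 lists, 12 lost their call without wild-type replicate 1: Orc3, Orc4, Mthfd2, Umps, Cdkn1c, Asf1a, H2az1, Fancd2, Rad54l, Birc5, Kif23 and Ttk (limma adjusted p 0.0513 for Fancd2 to 0.519 for Orc4). All of these but Fancd2 also lost it without at least 1 other array, and the other 11 named genes kept their call whichever array was left out.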

How the data were processed

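RNA of 6 pools was measured on 6 arrays, 3 per group. Per the file headers, signals came from Agilent Feature Extraction 10.7.3.1, protocol GE1_107_Sep09, on design 026655 (build mm9). The deposited scanner values are linear intensity values: the processed signal, already background-subtracted, and the median pixel signals of spot and background. The deposited value table holds log2 values of 24181 probes, whose correlation with each array's log2 processed signal was 0.999 to 1.00, with column medians of 6.77 each; how it was normalized is not stated in the sources used here.

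The 75th percentile of the log2 processed signal over 43020 non-control spots was subtracted on each array (611 to 844 units, with 61.6% to 68.8% of spots well above background and 0 saturated). Spots that the scanner software marked as outliers (100 to 169 per array) were left out, and the mean was taken over spots of 1 probe. Through accessions in a RefSeq table of GRCm38.p6, used for names only since its build is not that of the header, 26424 of 39429 probes (67.0%) got 1 symbol. The other probes kept the array's own name for their target, and shares of all genes include these names. Probes well above background on every array of wild type, of Arid3b-null or of both were tested (24423 probes), and the brightest stood for a gene. Arid3b-null minus wild type was fitted with lmFit and eBayes of limma 3.58.1 (R 4.3.3), two-sided, and every adjusted p is from limma. The code was tested on simulated data.

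The labels do not say what replicate numbers share, but per the file headers same-numbered arrays lay on 1 slide. Deviations from the group means correlated at 0.163, 0.387 and 0.278 for same-numbered arrays and at -0.346 to 0.117 for others. The numbers were therefore taken to pair the samples, but only in the replicate block, which is an alternative. The main fit has no block, so the calls and adjusted p given without a named setting ignore this pairing. With the block 8 replication genes were called lower and 0 higher, against 10 and 1 in the main fit.

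The text names all 44 genes; Arid3b; and from each related or marker list up to 4 called genes of smallest adjusted p, with values only where a result turns on them. The genes, roles and lists were chosen with earlier results of these data known. The alternatives were quantile and median scaling, normexp background correction (offset 50), the deposited table, no filter or all 6 arrays above background, the mean of a gene's probes, a replicate block and leaving out each array. Precision is limited by the number of arrays.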

Additional observations from a re-analysis of the deposited data

How the results depend on the processing

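The count of replication genes called lower, 10, was 8 with quantile normalization, median scaling or the replicate block, 8 of the 28 genes with a value in the authors' deposited table (the 15 without one include Pcna, Rpa1 and Rrm1), 12 with normexp, 11 where all 6 arrays had to be above background, 10 with the mean of probes, 6 with no filter on dim probes and 6 to 11 with 1 array left out. The count called higher, 1, was 2 with quantile normalization, normexp or the deposited table, where Pold1 joined Cdt1, 0 with median scaling, no filter or the replicate block, and 0 to 2 with 1 array left out. Over all genes the 5256 calls became 2286 with no filter, where 32530 genes were tested, and 2863 to 3939 with 1 array left out, with 2863 when wild-type replicate 1 and 3427 when Arid3b-null replicate 2 was dropped. Of 19795 genes, 2561 were called lower in the main fit, 2404 with quantile normalization, 2066 with median scaling and 2348 with the block. The count was 2187 with normexp and 2543 with the mean of probes. It was 2413 of 18552 genes with all 6 arrays above background and 2135 of 16564 in the deposited table. With no filter it was 998, and with 1 array left out 1202 to 2040. The median change of the replication genes kept its sign in all 14 alternatives, at -0.29 to -0.17.

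Ccne1, E2f2, Fen1, Rrm2, Tk1 and Tyms were called lower in all 14 alternatives, with adjusted p up to 0.0447 (limma). Besides the losses given above, Gins1 (0.0552) and Pcna (0.0782) were not called with no filter. Rpa1 and Rrm1 were not called with quantile normalization (0.0995 and 0.0855), median scaling (0.112 and 0.0935) or no filter (0.153 and 0.128), nor Rpa1 with normexp (0.0561), nor Cdt1 with median scaling (0.0657) or no filter (0.103). Rfc3, Mcm5 and Uhrf1 were called lower with normexp (0.0316, 0.0334 and 0.044), and Rfc3 also with the deposited table (0.0493) and where all 6 arrays were above background (0.0478). No called change reversed; 9 uncalled genes took both signs. The replicate block changed no call of a replication gene other than Cdt1, Rpa1 and Rrm1. Slides coincide with replicate numbers, so a slide block was not run apart. The causes of these shifts were not tested.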
